A study of Mus musculus with 15 samples.

Results

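The difference that goes with the shBCLAF1 label was measured in Artemis-deficient mouse pre-B cells, from 6 of the 15 RNA-seq libraries of the series. The 3 libraries labelled Art_shBCLAF1 were set against the 3 labelled Art, and the 2 groups were chosen by those labels alone. Expression is given as log2 CPM, the logarithm to base 2 of reads per 1000000, over the 11551 genes listed in any of the 4 deposited tables. Values are from all 6 libraries. Art replicate 3 stood apart from its group. Counts or medians of the gene lists, and genes whose call or size depends on that library, are given again without it.

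Both groups are Art -/- Abelson cells at passage 10 to 15, and both had 48 h of imatinib. Abelson cells are B-cell progenitors kept growing by the v-Abl kinase, which imatinib blocks. Art -/- cells lack Artemis, the nuclease that opens hairpin-sealed DNA ends during antigen receptor gene rearrangement. The shRNA label reads none for Art and shBCLAF1 for Art_shBCLAF1 (the labelled libraries). The labels name no control hairpin for Art, and the sources used here do not give the hairpin's sequence, how its cells were selected or whether a line is 1 clone. Nothing in the labels ties the 3 libraries of a group to separate cultures, so a p-value here measures the spread between these libraries, which may be technical. The 9 other libraries are Rag -/- Abelson cells with an inducible SPIC construct. Of these, Rag_SPIC_DOX and Rag_SPIC_DOX_shBCLAF1, 3 libraries each and both given doxycycline, carry the same label contrast in a second line.

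When v-Abl signalling stops, Abelson cells leave the cell cycle and switch on the RAG recombinase, which cuts the immunoglobulin light-chain genes. Without Artemis the cut ends are not joined, and signals from such breaks turn on genes through NF-kB, p53 and other factors. PU.1, encoded by Spi1, and its relative SPIB are ETS-family transcription factors that sustain pre-B-cell receptor genes such as Syk and Blnk. SPIC binds the same DNA motif and can oppose them, and the series' title places it in a complex with BCLAF1, an RNA- and chromatin-associated protein whose closest relative is THRAP3.

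Effective library sizes were 17.2 to 25.9 M reads (1 M is 1000000), except for Art replicate 3 with 5.81 M. Art replicate 3 had 145 genes at 0 reads, against 24 to 56 in the 5 others. Its root-mean-square log2 difference from Art replicates 1 and 2 was 0.94 and 0.95, against 0.27 between those 2 and 0.31 to 0.36 among the labelled libraries. The summed level of 14 pre-B markers was 13007 to 14262 CPM in Art and 6619 to 7196 CPM in the labelled libraries, and no marker of the list was at 0 reads in any library. Of these markers Cd79a, a signalling chain of the B-cell receptor, was at 10.32, 10.23 and 11.20 in Art and 9.61, 9.71 and 9.63 in the labelled libraries log2 CPM, a high level in all 6 libraries.

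Bclaf1 mRNA, the target of the hairpin named on the label, was not lower in the labelled libraries. Bclaf1 (ENSMUSG00000037608) was at 7.81, 7.75 and 6.41 in Art and 8.29, 8.35 and 8.32 in the labelled libraries log2 CPM. All 3 labelled libraries lay above all 3 Art libraries, and within Art replicate 3 was the low one. The difference did not pass the test with all 6 libraries (log2 fold change 0.99, SE 0.37, limma adjusted p = 0.0679), and without Art replicate 3 Bclaf1 was higher by 0.54 (limma adjusted p = 6.2e-06). Thrap3, its paralog, stood in the same order, at 7.41, 7.41 and 6.09 in Art and 7.88, 7.84 and 7.95 in the labelled libraries, with a log2 fold change of 0.92 (SE 0.36, limma adjusted p = 0.0761) and of 0.49 without Art replicate 3. BCLAF1 protein was not measured in these files, and every direction here is that of the label.

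Spic was higher in the labelled libraries although no label gives Art cells a SPIC construct. It had 46, 21 and 6 reads in Art and 511, 378 and 509 in the labelled libraries, a log2 fold change of 4.10 (SE 0.24, n = 3 per group, limma adjusted p = 0.000135), and 3.96 without Art replicate 3. The other 2 members of this ETS subfamily did not follow it. Spi1, which encodes PU.1, was at 7.10, 6.92 and 7.73 in Art and 7.30, 7.19 and 7.12 in the labelled libraries, with groups that overlapped and a log2 fold change of -0.05 (SE 0.22, limma adjusted p = 0.863). Without Art replicate 3, the highest of the 6, the sign turned to 0.19 (adjusted p = 0.0379). Spib fell, from 7.32, 7.27 and 7.30 in Art to 5.91, 6.10 and 5.98 in the labelled libraries (log2 fold change -1.30, SE 0.11, limma adjusted p = 0.000319), or -1.30 without Art replicate 3. The 3 Art values of Spib were close to each other and well above the labelled ones.

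Syk, the kinase that relays pre-B-cell receptor signals, and Blnk, its adaptor, both fell. Syk was at 9.73, 9.72 and 9.71 in Art and 9.04, 9.22 and 9.08 in the labelled libraries (log2 fold change -0.61, SE 0.11, limma adjusted p = 0.00511), and Blnk at 9.79, 9.70 and 9.56 in Art and 8.85, 9.19 and 8.82 in the labelled libraries, a log2 fold change of -0.73 (SE 0.15). The values were -0.61 and -0.79 without Art replicate 3. The groups did not overlap for either gene, and labelled replicate 2 was nearest to Art in both. Rag1, the catalytic chain of the recombinase, fell from 11.55, 11.55 and 10.36 to 8.25, 8.56 and 8.38, by 2.76 log2 units (SE 0.34, limma adjusted p = 0.00121), or by 3.15 without Art replicate 3. Rag2 was at 6.81, 6.68 and 5.36 in Art and 5.57, 5.68 and 5.66 in the labelled libraries. With a log2 fold change of -0.65 (adjusted p = 0.206) it did not pass the test, and without Art replicate 3 it was lower by 1.11 log2 units (adjusted p = 8.88e-08). Dclre1c, the Artemis gene, read 5.12, 4.99 and 2.87 in Art and 3.83, 4.25 and 4.16 in the labelled libraries. Both groups carry the deficiency on the label, and values per gene cannot tell whether the reads come from a disrupted gene. The difference of Dclre1c was -0.25 (adjusted p = 0.756) with all 6 libraries and -0.98 (adjusted p = 2.27e-05) without Art replicate 3.

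**Figure D1:**
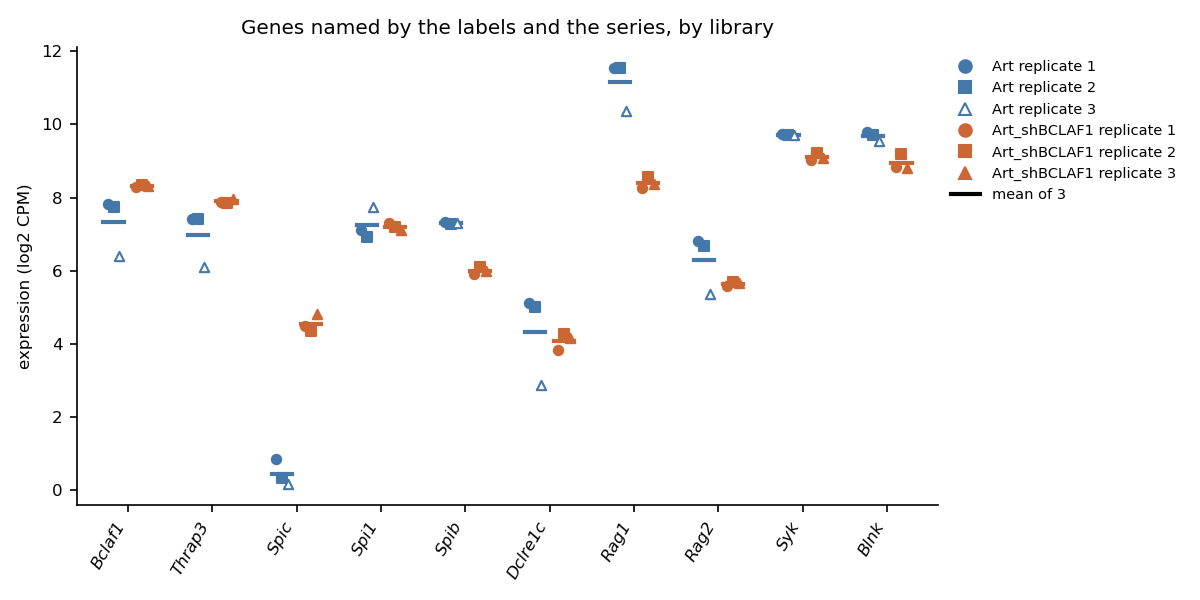
Log2 CPM (y axis) of 10 genes named by the labels or the series in each of the 6 libraries; symbols mark replicates, open triangles are Art replicate 3 and horizontal bars are group means. Spic is higher and Spib, Syk, Blnk and Rag1 are lower in every labelled library than in every Art library, whereas Bclaf1 and Thrap3 are higher.

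Across all genes, 5664 of 11551 changed (49.0%), 2884 higher in the labelled libraries (25.0%) and 2780 lower (24.1%). All genes here means genes that passed the authors' own test in at least 1 comparison, 9784 of them in the comparison of these groups. The shares of all genes are therefore those of a preselected set and can exceed those of all expressed genes. Adjusted p-values over such a set can be too small. The groups did not overlap for 7574 genes, or 65.6%. Changes of at least 1 log2 unit numbered 1768 upward (15.3%) and 1641 downward (14.2%). Without Art replicate 3, 9252 genes changed (80.1%), 4690 upward (40.6%) and 4562 downward (39.5%). Of the 5664 genes, 5657 changed in the same direction without that library, 7 did not pass and 0 turned. Without labelled replicate 1 the count was 3740, of which 1882 were higher. The median log2 fold change of all genes was 0.05, or -0.00 without Art replicate 3. With each library centred on its own median it was -0.18, and the share of changed genes that were higher went from 50.9% to 37.5%, so small differences near this shift depend on the scaling. So many genes changed that a list is read here against these shares, not against 0.

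The naming rule took the 12 largest changes in each direction among genes of above-median expression that changed with and without Art replicate 3 and whose groups did not overlap, so the separation of these genes is part of the rule. Bcat1, which starts branched-chain amino acid breakdown, went from 2.69, 2.76 and 2.97 to 7.99, 7.70 and 7.89 (log2 fold change 5.06, SE 0.14, limma adjusted p = 3.52e-05). Pole2, a subunit of DNA polymerase epsilon, went from 3.70, 3.72 and 4.54 to 8.89, 8.57 and 8.78, and Myc, the growth-promoting transcription factor, from 3.87, 4.08 and 4.26 to 8.89, 8.68 and 8.79 (log2 fold change 4.72, SE 0.14, limma adjusted p = 3.52e-05). Psat1 (4.56) makes serine, Mthfd2 (3.71) and Mthfd1l (4.17) carry folate-bound carbon units in mitochondria, and Asns (3.53) makes asparagine. Slc7a5 (3.63) and Slc7a1 (3.56) bring amino acids into the cell. Ccnd2 (4.55) encodes cyclin D2, Snrpd1 (3.51) a core protein of spliceosomal particles, and Txnrd3 (3.51) a thioredoxin reductase.

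Cacna1e, which had the largest of the 12 falls and encodes a voltage-gated calcium channel chain, went from 8.70, 8.71 and 7.27 to 2.21, 3.12 and 2.32 (log2 fold change -5.67, SE 0.45, limma adjusted p = 0.00029). Itgam, the alpha chain of the integrin Mac-1, went from 9.79, 9.80 and 9.37 to 4.35, 5.18 and 4.40 (log2 fold change -5.01, SE 0.26, limma adjusted p = 9.04e-05). Mid1 (-5.27) encodes a microtubule-associated ubiquitin ligase, Adamts7 (-3.99) a secreted metalloprotease and Itgb3 (-3.04) an integrin beta chain. Ltb (-3.59) encodes lymphotoxin beta, Cdkn2a (-3.42) the inhibitors INK4A and ARF, and Gadd45g (-3.06) a stress-induced growth-arrest protein. Tmtc1 (-3.97), Shisa5 (-3.24), Snn (-3.13) and Pqlc3 (-2.90) complete the group. Art replicate 3 was the highest Art library for 8 of them, Snn and Itgb3 by little, and the lowest for Cacna1e, Itgam, Tmtc1 and Pqlc3. For Cdkn2a the log2 fold change without it was -2.77, and for Ltb -3.13.

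**Figure D2:**
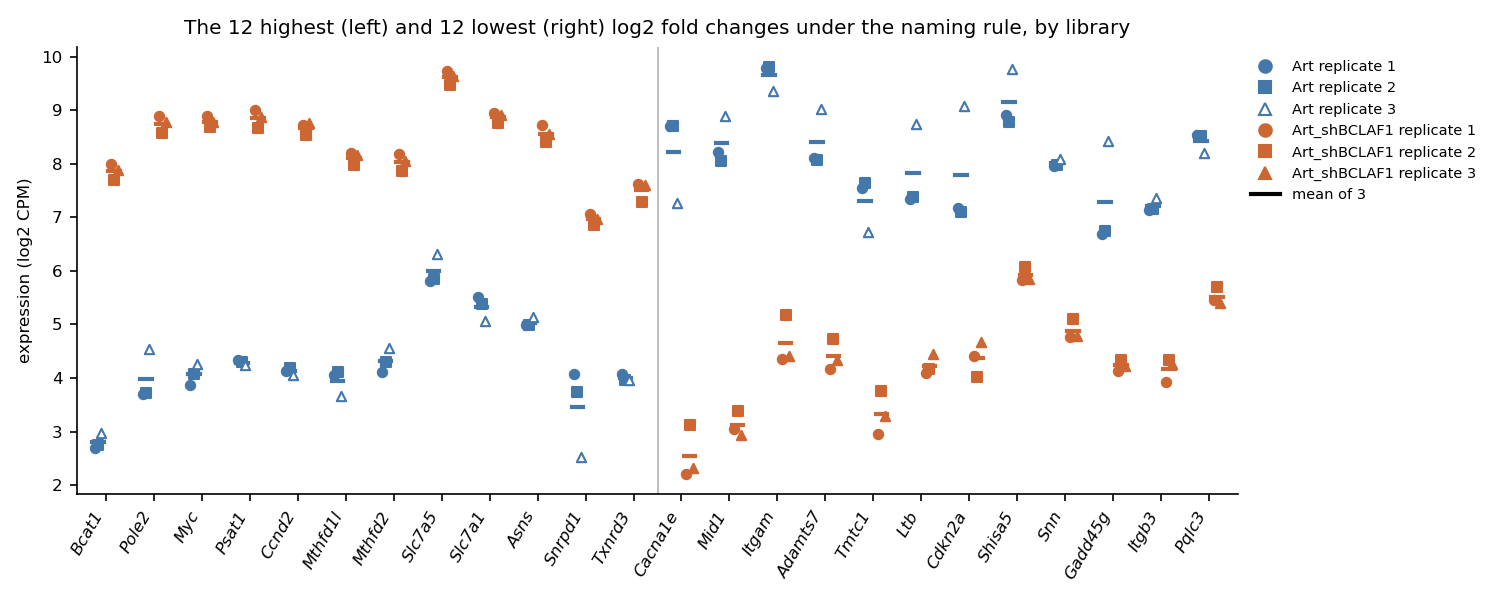
Log2 CPM (y axis) in each library for the 12 largest rises (left of the line) and 12 largest falls (right) under the naming rule; symbols mark replicates and bars are means of 3. The groups of all 24 genes are apart because the rule asks for it, and labelled replicate 2 (orange squares) is the labelled library nearest to Art in 22 of them.

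The labelled libraries differed among themselves in how far they lay from Art. For 3807 of the 5664 changed genes (67.2%), labelled replicate 2 was the nearest of the 3 to the mean of Art replicates 1 and 2, against 1164 (20.6%) for replicate 3 and 693 (12.2%) for replicate 1. Bcl6, at 4.64, 5.40 and 4.66 in the labelled libraries, and Bmf, at 6.82, 7.56 and 6.93, are examples of this order.

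Genes that report signalling through RAS and MAP kinase rose. MAPK feedback genes are switched on by ERK activity, and several encode inhibitors of the same pathway. Of the 19 measured of 22, 14 rose, 1 fell and 4 did not pass, with a median log2 fold change of 1.61 beside 0.05 for all genes, and 16 rose without Art replicate 3 (median 1.70). Of all genes 25.0% rose. Spry4, an inhibitor of receptor tyrosine kinase signalling, had 4, 5 and 3 reads in Art and 772, 490 and 594 in the labelled libraries, a log2 fold change of 6.57 (SE 0.45, limma adjusted p = 0.000185). The ETS factors Etv4 (5.58) and Etv5 (5.22) rose too, Etv5 from 1.49, 2.13 and 2.02 to 7.15, 6.98 and 7.16. The phosphatase gene Dusp4 went from 2.45, 2.34 and 2.29 to 5.71, 5.42 and 5.60 (3.22, SE 0.14), Egr2 rose by 3.28 and Egr1 by 2.47. Dusp2 (-1.42) was the 1 that fell, so the group did not move as a block.

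The genes of the ABL and STAT5 list were split. Of 23 genes, 10 rose, 4 fell and 9 did not pass, with a median of -0.12, and without Art replicate 3 the counts were 10 and 11. Leaving out labelled replicate 1 left 6 that rose. Myc and Ccnd2 led the rises. Socs2 (1.81), Cish (1.36), Osm (1.11), Socs3 (0.92), Pim3 (0.90), Socs1 (0.75), Pim1 (0.63) and Pim2 (0.55) were the others. The list mixes target genes with the kinase and STAT5 genes themselves and with Bcl6, so these counts do not measure output. Il2ra, the interleukin-2 receptor alpha chain, fell from 8.13, 8.08 and 7.04 to 4.76, 5.20 and 4.82 (log2 fold change -2.82, SE 0.32, limma adjusted p = 0.000897), and Bcl6, a repressor that STAT5 holds down, from 7.67, 7.65 and 7.89 to 4.64, 5.40 and 4.66 (log2 fold change -2.84, SE 0.23, limma adjusted p = 0.000301). Il7r (-0.82, adjusted p = 0.207), Stat5a (-0.26, adjusted p = 0.293) and Stat5b (-0.23, adjusted p = 0.163) did not pass in limma with all 6 libraries. Il7r was at 10.22, 10.12 and 8.49 in Art and 8.59, 9.21 and 8.58 in the labelled libraries, and without Art replicate 3 it was lower by 1.38 log2 units (adjusted p = 1.04e-05).

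Nearly all MYC targets and genes that build ribosomes rose. MYC binds DNA with its partner MAX and drives growth, whereas MXD proteins take its place at the same sites in resting cells. In the MYC network 4 of 13 measured genes rose and 4 fell, and 2 rose when any library other than Art replicate 3 was left out. These counts were 5 and 6 without Art replicate 3. Beside Myc, Mycn rose from 3.77, 3.78 and 3.84 to 7.13, 6.97 and 7.07 (log2 fold change 3.26, SE 0.11, limma adjusted p = 5.27e-05), while Mxd4 (-1.16), a MYC antagonist, and Mlxip (-2.01), a glucose-responsive relative, fell. Of 39 measured textbook MYC targets of 40, 37 rose, 1 fell and 1 did not pass, with a median of 2.26, or 2.24 without Art replicate 3. Srm, which makes the polyamine spermidine, went from 2.16, 2.24 and 3.31 to 7.89, 7.47 and 7.70 (log2 fold change 5.12, SE 0.33, limma adjusted p = 0.000158), and Ldha, lactate dehydrogenase A, from 6.91, 6.92 and 7.69 to 10.73, 10.35 and 10.62. Tert (-1.65), the telomerase protein, was the 1 that fell. Tfrc, the transferrin receptor, was at 7.23, 7.38 and 5.86 in Art and 7.91, 7.75 and 7.89 in the labelled libraries, and its 1.03 (adjusted p = 0.0743) did not pass until Art replicate 3 was left out (0.54).

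In ribosome biogenesis, 46 of 49 measured genes rose and 0 fell, with a median of 1.76 (all 49 rose without Art replicate 3, median 1.62). Nop58 (3.15) and Dkc1 (2.71), proteins of the particles that modify ribosomal RNA, were among the largest, with Npm1 (2.83), Gnl3 (2.80) and Rrp1b (2.80). Of these, Nop58, Dkc1, Npm1 and Gnl3 are also on the list of MYC targets, so the counts of the lists are not independent. Dkc1 was at 4.95, 4.82 and 4.96 in Art and 7.71, 7.45 and 7.70 in the labelled libraries, with Art replicate 3 level with its group. Ubtf, which helps RNA polymerase I start, was at 7.92, 7.79 and 8.17 in Art and 8.39, 8.29 and 8.34 in the labelled libraries and did not pass (0.38, limma adjusted p = 0.0548). Npm1 has many processed pseudogenes, so how its reads were assigned can affect its level.

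Promoters of the MYC list were searched for the E-box bound by MYC and MAX, CACGTG, which reads the same on both strands, in the 250 bases before each RefSeq start. It was found in 7 of 32 matched genes (21.9%), beside 9.85% of all 9104 matched genes and 9.92% of the 1179 that were at least 1 log2 unit higher with and without Art replicate 3. The share among all such risen genes was thus near that of all genes. These 60-base windows are from 3 of the members that rose, each with its own E-box nearest the start in capitals. They are from RefSeq's GRCm38.p6, written 5′ to 3′ in the direction of the gene.
Ldha, chr7:46845729-46845788, plus strand: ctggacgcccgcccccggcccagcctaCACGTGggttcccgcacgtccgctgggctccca
Nme1, chr11:93968273-93968332, minus strand: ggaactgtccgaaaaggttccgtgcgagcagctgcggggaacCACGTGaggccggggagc
Apex1, chr14:50924889-50924948, plus strand: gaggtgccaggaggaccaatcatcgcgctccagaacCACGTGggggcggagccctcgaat
Ldha rose by 3.39, Nme1, a nucleoside diphosphate kinase, by 2.77 and Apex1, a base-excision repair nuclease, by 2.53.

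**Figure D3:**
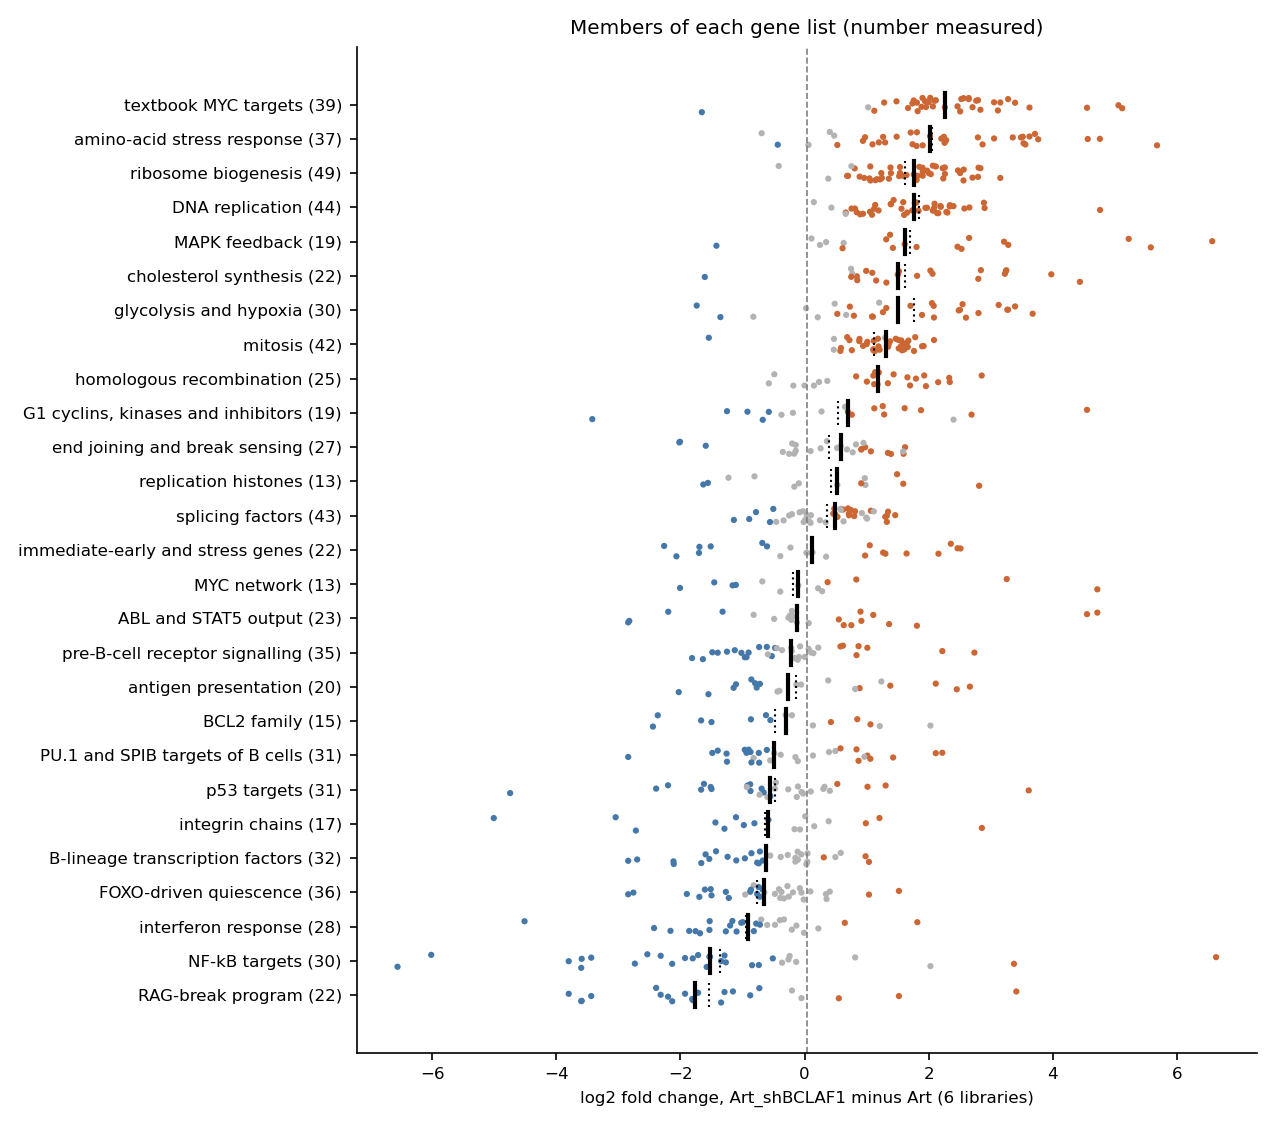
Log2 fold change (x axis, Art_shBCLAF1 minus Art, 6 libraries) of each member of 27 gene lists; orange points rose, blue points fell and grey points did not pass, the solid bar is the list's median, the dotted bar its median without Art replicate 3 and the dashed line the median of all genes. MYC targets have the highest median, 2.26, and the RAG-break program the lowest, -1.76.

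Genes of DNA replication rose nearly throughout. Of 44 genes 41 rose and 0 fell, with a median of 1.76, or 1.84 and 43 risen without Art replicate 3. After Pole2, the largest were the loading factor Cdc6 (2.90), Pold2 (2.89) of polymerase delta, Gins1 (2.66) and Mcm6 (2.58) of the replicative helicase. Mcm6 was at 6.28, 6.34 and 6.55 in Art and 9.09, 8.83 and 8.99 in the labelled libraries, and Art replicate 3 lay near its group. Pold1 was at 6.81, 6.80 and 8.15 in Art and 8.03, 7.73 and 7.99 in the labelled libraries and did not pass with all 6 libraries (0.66, adjusted p = 0.188), with Art replicate 3 above the labelled values. Without that library its log2 fold change was 1.11.

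The E2F site, searched as TTTCCCGC or TTTGGCGC on both strands of the same 250 bases, was in 7 of 36 matched replication genes (19.4%). Of all matched genes 2.92% held it, of those at least 1 log2 unit higher 3.82% and of the 1119 at least 1 unit lower 1.61%. E2F factors drive the genes of DNA synthesis at the end of G1, and the sites of Cdc6 and Mcm6 are shown in capitals.
Cdc6, chr11:98907987-98908046, plus strand: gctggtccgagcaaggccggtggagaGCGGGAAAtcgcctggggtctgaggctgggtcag
Mcm6, chr1:128359719-128359778, minus strand: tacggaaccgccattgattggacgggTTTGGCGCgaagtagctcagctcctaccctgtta
The match in Cdc6 is on the opposite strand to the gene and that in Mcm6 on the same strand.

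Mitosis genes rose by less. Of 42 genes 38 rose, 1 fell and 3 did not pass, with a median of 1.31, or 1.11 without Art replicate 3, when 41 rose. The condensin subunit Smc2 went from 6.77, 6.80 and 5.35 to 8.40, 8.34 and 8.44 (log2 fold change 2.09, SE 0.39, limma adjusted p = 0.00588). Cdk1, the kinase of mitotic entry, rose by 1.78 and Cdca5, which protects sister-chromatid cohesion, by 1.76. Mki67, a marker of cycling cells, was at 9.62, 9.59 and 7.45 in Art and 10.09, 10.11 and 10.35 in the labelled libraries and did not pass with all 6 libraries (1.30, adjusted p = 0.111). Art replicate 3 was its low value, and without it the log2 fold change was 0.58 (adjusted p = 9.81e-05). Ccnb1 (0.47, adjusted p = 0.0797) and Cdc20 (0.47, adjusted p = 0.118) did not pass in limma either. Cdc25b (-1.54), a phosphatase that activates cyclin-dependent kinases, was the 1 that fell.

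Of the genes that set the pace of G1, the D-type cyclins rose and the INK4A/ARF locus fell. Of 19 measured 9 rose, 5 fell and 5 did not pass, with a median of 0.70, and the falls numbered 3 without Art replicate 1 or 2 or labelled replicate 1 or 2, and 8 without Art replicate 3. Ccnd2 was at 4.14, 4.19 and 4.05 in Art and 8.73, 8.54 and 8.76 in the labelled libraries (log2 fold change 4.55, SE 0.12, limma adjusted p = 3.52e-05), Ccnd3 at 7.99, 8.0 and 8.65 in Art and 10.20, 9.97 and 10.10 in the labelled libraries (1.88). Ccne1, which drives entry into DNA synthesis, rose by 2.69. Cdkn1b, the inhibitor p27, was at 8.14, 8.12 and 6.33 in Art and 7.33, 7.45 and 7.24 in the labelled libraries, where Art replicate 3 lay below all labelled libraries and Art replicates 1 and 2 above them. Its log2 fold change was -0.19 (adjusted p = 0.775), and -0.79 (adjusted p = 1.27e-06) without that library. Cdk2 (0.65, adjusted p = 0.0636) did not pass in limma.

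Replication histones had no common direction, with 4 of 13 measured genes higher and 2 lower, and 1 to 5 higher when single libraries were left out. The counts were 5 and 3 without Art replicate 3. Hist1h1c, a linker histone, fell from 5.96, 6.08 and 6.15 to 4.33, 4.68 and 4.27 (log2 fold change -1.63, SE 0.15, limma adjusted p = 0.000476). Hist1h4a rose by 2.81 and Hist1h2ac fell by 1.56, both from low levels in Art. Histone genes are nearly identical copies, and the sources used here do not say how the authors' counting split their reads.

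Repair genes were read as 2 lists. In homologous recombination, which repairs breaks from a sister chromatid, 18 of 25 rose, 0 fell and 7 did not pass, with a median of 1.18, and without Art replicate 3 19 rose and 3 fell. Chek1, the checkpoint kinase of replication stress, was at 3.12, 3.19 and 1.22 in Art and 5.47, 5.29 and 5.32 in the labelled libraries (2.85, or 2.21 without Art replicate 3, the lowest). Exo1 (2.33), Blm (2.34, or 1.74 without Art replicate 3), Brip1 (2.15, or 1.56) and Fancd2 (1.96) rose too. In end joining and break sensing, which handles RAG breaks, 8 of 27 rose, 3 fell and 16 did not pass, a share of rises near the 25.0% of all genes. The rises and falls numbered 16 and 7 without Art replicate 3, and 4 to 5 rose when any labelled library was left out. The 3 that fell were Lig4, Dntt and Xrcc6. Lig4, the ligase that seals the ends, was at 6.83, 6.80 and 6.44 in Art and 4.59, 4.80 and 4.65 in the labelled libraries (log2 fold change -2.01, SE 0.15, limma adjusted p = 0.000237). Dntt, which adds untemplated bases at junctions, was at 7.76, 7.83 and 7.20 in Art and 5.46, 5.72 and 5.56 in the labelled libraries (-2.02, SE 0.19), and Xrcc6, the Ku70 subunit, at 9.21, 9.19 and 9.34 in Art and 7.61, 7.75 and 7.60 in the labelled libraries (-1.59, SE 0.11). Xrcc5, the Ku80 partner of Xrcc6, went the other way, at 4.13, 4.24 and 3.40 in Art and 5.60, 5.43 and 5.54 in the labelled libraries (1.60, SE 0.24), as did Polq (1.62), the polymerase of an alternative joining route. Prkdc, the kinase that activates Artemis, did not pass (0.83, limma adjusted p = 0.106).

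Amino-acid and one-carbon genes were among the largest rises. ATF4 is the transcription factor that answers amino-acid shortage and unfolded protein, and its targets include amino-acid enzymes, transporters and tRNA synthetases. Of 37 measured genes of this response 32 rose, 1 fell (0 to 2 with single libraries left out) and 4 did not pass, with a median of 2.02, or 2.05 without Art replicate 3. Cth, which makes cysteine, was at 1.71, 1.46 and 1.41 in Art and 6.47, 6.02 and 6.37 in the labelled libraries (log2 fold change 4.76, SE 0.17, limma adjusted p = 5.27e-05). Slc1a4 rose from 3.03, 2.89 and 3.25 to 6.92, 6.65 and 6.90, and Stc2, a secreted glycoprotein, had 4, 4 and 0 reads in Art and 222, 125 and 148 in the labelled libraries (5.68). Psat1 was at 4.33, 4.30 and 4.24 in Art and 9.01, 8.66 and 8.88 in the labelled libraries, and no Art library stood apart. Ddit3, the stress factor CHOP, was at 5.37, 5.41 and 6.86 in Art and 5.24, 5.07 and 5.26 in the labelled libraries and did not rise (-0.69, adjusted p = 0.204). The list therefore moved without its best-known apoptotic member.

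The ATF4 site, searched as TGATGNAA on both strands, was in 8 of 26 matched genes of the list (30.8%) and in 2.53% of all matched genes. Among genes at least 1 log2 unit higher it was in 2.80%, and among those at least 1 unit lower in 3.75%. The windows of 5 members that rose show it in capitals.
Asns, chr6:7693210-7693269, minus strand: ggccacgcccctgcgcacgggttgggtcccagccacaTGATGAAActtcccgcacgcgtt
Chac1, chr2:119351023-119351082, plus strand: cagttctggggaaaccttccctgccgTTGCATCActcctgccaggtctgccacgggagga
Nupr1, chr7:126625547-126625606, minus strand: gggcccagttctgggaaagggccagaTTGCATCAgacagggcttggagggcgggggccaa
Aars, chr8:111033704-111033763, plus strand: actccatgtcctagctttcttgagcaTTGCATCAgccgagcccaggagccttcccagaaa
Tars, chr15:11399659-11399718, minus strand: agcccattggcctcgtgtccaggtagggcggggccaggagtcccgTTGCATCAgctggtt
Asns carries TGATGAAA, whereas the others share TTGCATCA, the form of the site read from the opposite strand. Their log2 fold changes were 3.53, 3.49, 3.52, 1.30 and 1.71. Chac1 degrades glutathione, Nupr1 is a stress-induced chromatin protein, and Aars and Tars load alanine and threonine onto tRNA.

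Sterol and sugar metabolism followed. In cholesterol synthesis and uptake 19 of 22 measured genes rose, 1 fell and 2 did not pass, with a median of 1.51, or 1.62 without Art replicate 3. Sqle, the squalene epoxidase, was at 3.69, 3.81 and 3.0 in Art and 6.84, 6.64 and 6.75 in the labelled libraries (log2 fold change 3.24, SE 0.23, limma adjusted p = 0.000199). Cyp51 (3.23) and Idi1 (3.98), also enzymes along the route to cholesterol, rose as well. Idi1 started from few reads, and without Art replicate 3 its log2 fold change was 3.21. Tm7sf2 (-1.61), a sterol reductase, fell. The sterol element bound by SREBP, searched as TCACNCCAC on both strands, was in 0 of 15 matched genes of the list and in 1.25% of all. Of 30 genes of glycolysis and hypoxia 22 rose, 2 fell (1 to 3 with single libraries left out) and 6 did not pass, with a median of 1.51, or 1.77 without Art replicate 3. Hk2, which traps glucose in the cell, went from 3.68, 3.87 and 4.80 to 7.48, 7.15 and 7.56, and Eno1 from 5.11, 5.04 and 4.89 to 8.48, 8.04 and 8.33. Gapdh rose by 3.13 and P4ha2, a collagen hydroxylase, by 3.68. Eno2 (-1.74), another enolase gene, fell, and Hif1a, the oxygen-sensing factor, did not pass (0.67, limma adjusted p = 0.174). Eno1 and Gapdh have processed pseudogenes, which can take or give reads.

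Among splicing genes the median difference was small. Of 43 measured 17 rose, 5 fell and 21 did not pass, with a median of 0.50, or 0.36 without Art replicate 3. The falls numbered 13 without Art replicate 3 and 0 without any 1 labelled library, and the rises 10 to 27. Hnrnpa1 (1.46), Hnrnpa2b1 (1.35), Hnrnpd (1.33), U2af1 (1.33) and Sf3a1 (1.30), proteins that mark introns or their ends, had the largest rises.

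Genes of the pre-B-cell state were lower more often than higher. Of 31 measured PU.1 and SPIB targets 8 rose, 13 fell and 10 did not pass, with a median of -0.49, or -0.50 without Art replicate 3, when 11 rose and 18 fell. In pre-B-cell receptor signalling 7 of 35 rose and 14 fell (median -0.21), or 8 and 19 without Art replicate 3 (median -0.24), and among B-lineage transcription factors 3 of 32 rose and 16 fell (median -0.61). The rises in the last list numbered 1 without labelled replicate 1 or 3 and 5 without Art replicate 3, when 22 fell. The shares that fell, set beside 24.1% of all genes, covered both adaptors and factors. These lists share genes, such as Cd79b, Syk and Blnk in the first and second, so their counts are not independent. Cd79b, a signalling chain of the receptor, was at 10.22, 10.16 and 11.31 in Art and 9.08, 9.20 and 8.95 in the labelled libraries (-1.49, or -1.11 without Art replicate 3), and Dok3, an inhibitory adaptor, at 9.56, 9.51 and 10.35 in Art and 7.88, 8.19 and 7.91 in the labelled libraries (-1.81). Rasgrp1, an activator of RAS, rose from 2.97, 2.86 and 1.50 to 5.29, 5.06 and 5.20 (log2 fold change 2.74, SE 0.40, limma adjusted p = 0.00223). Ptpn6, the phosphatase SHP-1, rose from 5.54, 5.51 and 6.12 to 8.06, 7.80 and 7.96 (log2 fold change 2.22, SE 0.19, limma adjusted p = 0.000385). The PU.1 site, searched as GAGGAAGT on both strands, was in 4 of 25 matched targets (16.0%) beside 3.08% of all genes, 2.54% of those at least 1 log2 unit higher and 2.95% of those at least 1 unit lower.

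Among the factors, Erg, an ETS protein of early progenitors, was at 8.72, 8.63 and 9.12 in Art and 5.94, 6.31 and 6.13 in the labelled libraries (log2 fold change -2.70, SE 0.17, limma adjusted p = 0.000163). Sox4, which supports early B-cell survival, fell by 2.11 log2 units, Gfi1, a repressor, by 2.11 and Prdm1, the factor of plasma-cell differentiation, by 1.66. Pax5, the factor that holds B-cell identity, was at 8.48, 8.27 and 8.15 in Art and 8.17, 8.31 and 8.27 in the labelled libraries and did not pass, nor did Irf4 (-0.38, limma adjusted p = 0.0754), which was at 8.49, 8.48 and 8.14 in Art and 7.87, 8.16 and 7.93 in the labelled libraries. The Pax5 values of the groups overlapped, with a log2 fold change of -0.05 (adjusted p = 0.761).

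FOXO factors run the quiescent state that follows loss of kinase signalling, including Rag1 expression. Of 36 measured genes of that state 2 rose (1 to 4 with single libraries left out), 16 fell and 18 did not pass (median -0.66), and 28 fell without Art replicate 3 (median -0.76). S1pr1, a receptor for egress from tissue, was at 7.67, 7.54 and 7.63 in Art and 5.60, 6.04 and 5.52 in the labelled libraries (log2 fold change -1.90, SE 0.17, limma adjusted p = 0.000382). Trib1 (-1.69), a scaffold for ubiquitin ligases, and Fbxo32 (-1.61), an atrophy-linked ubiquitin ligase, fell as well.

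NF-kB targets fell more uniformly. RAG breaks are known to signal through ATM to NF-kB in pre-B cells, and the RAG-break program collects genes reported as induced by such breaks. Of 22 measured genes of that program 17 fell, 3 rose and 2 did not pass, with a median of -1.76, or -1.54 without Art replicate 3, when 18 fell and 4 rose. Of 30 NF-kB targets 22 fell, 2 rose and 6 did not pass, with a median of -1.53, or -1.36 without Art replicate 3, when 23 fell and 5 rose. The lists share 11 genes, 50.0% of the first and 36.7% of the second, and Art replicate 3 was the highest Art library for several of these genes.

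Tnfaip3, which encodes the NF-kB inhibitor A20, was at 6.94, 6.89 and 6.79 in Art and 3.25, 3.79 and 3.28 in the labelled libraries (log2 fold change -3.44, SE 0.18, limma adjusted p = 8.92e-05). Cd40, a costimulatory receptor, went from 4.09, 4.24 and 5.21 to 0.36, 1.25 and 0.54 (-3.80, or -3.45 without Art replicate 3). Ccl5, a chemokine, had 241, 145 and 220 reads in Art and 4, 2 and 2 in the labelled libraries (-6.56, SE 0.60, or -5.86 without Art replicate 3). Ebi3, a cytokine subunit, was at 4.75, 4.69 and 5.37 in Art and -2.72, -0.27 and -0.24 in the labelled libraries (-6.01), and labelled replicate 1 was its lowest library. Cd80 (-2.39), a ligand for T-cell costimulation, and Fas (-2.20), a death receptor, fell as well. Ccl4, another chemokine, had 19, 7 and 0 reads in Art and 0, 0 and 0 in the labelled libraries. Against 3 reads over the labelled group it was at least 10.6-fold lower, and with it at that bound the medians of both lists were the same.

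The exceptions rose strongly. Lta, lymphotoxin alpha, had 49, 32 and 7 reads in Art and 3976, 2833 and 3169 in the labelled libraries, a log2 fold change of 6.63 (SE 0.19, limma adjusted p = 3.52e-05). Its neighbour and partner Ltb fell by 3.59 log2 units, from 7.34, 7.39 and 8.74 to 4.10, 4.16 and 4.44. Cd86, the counterpart of Cd80, rose from -2.23, -2.79 and -1.95 to 1.19, 0.96 and 1.11 (log2 fold change 3.41, SE 0.31, limma adjusted p = 0.000435). Of the NF-kB subunits, Nfkb2 fell from 8.34, 8.29 and 9.04 to 6.09, 6.49 and 6.14 (-2.32) and Relb from 7.22, 7.21 and 8.28 to 4.80, 5.02 and 4.68 (-2.73). Rela fell by less, from 7.77, 7.63 and 7.91 to 6.99, 7.21 and 6.90 (-0.74, or -0.67 without Art replicate 3). Nfkb1 (-0.24, adjusted p = 0.242) and Rel (-0.36, adjusted p = 0.34) did not pass in limma. Rel was at 5.98, 5.95 and 4.98 in Art and 5.09, 5.39 and 5.35 in the labelled libraries.

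The NF-kB site, searched as GGGRNWYYCC on both strands, was in 10 of 21 matched NF-kB targets (47.6%) beside 5.47% of all matched genes. In it R is A or G, W is A or T, Y is C or T and N is any base. It was in 8.76% of genes at least 1 log2 unit lower and in 4.24% of those at least 1 unit higher. The windows of 5 members that fell show 1 match each in capitals, and Tnfaip3 and Nfkb2 have further matches.
Nfkbia, chr12:55492648-55492707, minus strand: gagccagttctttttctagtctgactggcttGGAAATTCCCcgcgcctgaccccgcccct
Tnfaip3, chr10:19015411-19015470, minus strand: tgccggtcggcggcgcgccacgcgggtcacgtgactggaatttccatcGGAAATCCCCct
Ltb, chr17:35194395-35194454, plus strand: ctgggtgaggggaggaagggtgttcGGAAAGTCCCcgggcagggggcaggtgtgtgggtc
Nfkbie, chr17:45555569-45555628, plus strand: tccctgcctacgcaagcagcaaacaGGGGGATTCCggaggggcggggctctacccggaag
Nfkb2, chr19:46304673-46304732, plus strand: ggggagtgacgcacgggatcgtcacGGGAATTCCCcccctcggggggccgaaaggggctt
Nfkbia, which encodes the inhibitor IkB-alpha, fell from 8.21, 8.30 and 9.04 to 6.68, 6.88 and 6.60 (-1.80) and Nfkbie, IkB-epsilon, from 7.78, 7.78 and 7.52 to 5.07, 5.27 and 5.16 (-2.53). A match shows the letters of the motif and not that a factor binds there. A list written as targets of a factor can hold its motif often, whether or not the members changed here. Nothing about these data is read from the shares of the lists, for this or the other motifs.

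**Figure D4:**
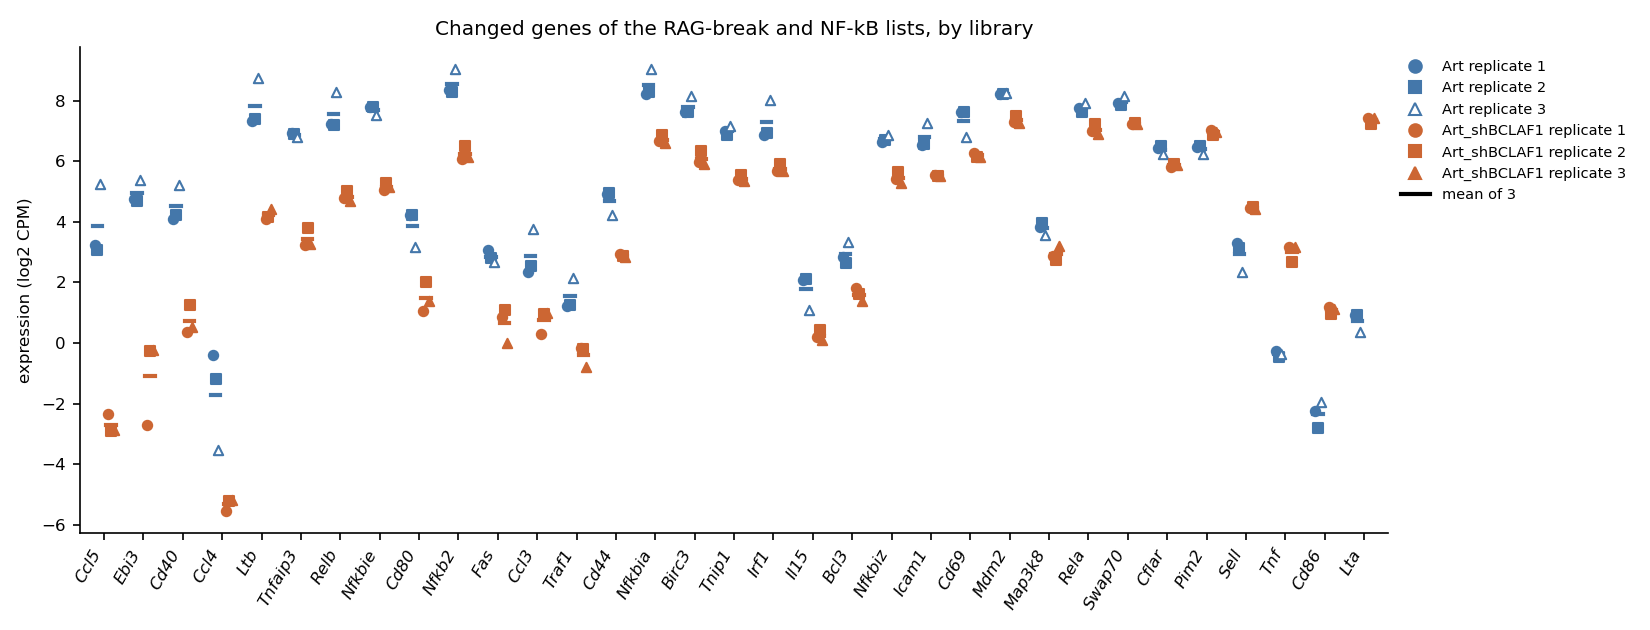
Log2 CPM (y axis) in each library for the changed genes of the RAG-break and NF-kB lists, ordered by log2 fold change; symbols mark replicates, open triangles are Art replicate 3 and bars are means of 3. Most genes are lower in every labelled library, whereas Cd86 and Lta at the right are higher; Ccl4 had 0 reads in all 3 labelled libraries and in Art replicate 3.

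p53 targets and BCL2-family genes were lower on balance, with exceptions. Of 31 p53 targets 4 rose, 13 fell and 14 did not pass (median -0.55), and the falls numbered 21 without Art replicate 3 and 8 without labelled replicate 1 or 3. The rises numbered 7 without Art replicate 3 and 2 without labelled replicate 1. Pmaip1 (NOXA) fell from 6.50, 6.47 and 5.62 to 4.54, 4.61 and 4.45 and Bbc3 (PUMA) from 7.85, 7.66 and 8.29 to 6.37, 6.73 and 6.20, and both encode proteins that trigger apoptosis. Plk2 had 39, 25 and 5 reads in Art and 0, 3 and 0 in the labelled libraries (-4.74), whereas Plk3, a related kinase, rose from 0.19, -0.25 and 0.55 to 3.90, 3.46 and 3.97 (3.61). Trp53 itself was at 7.72, 7.58 and 7.84 in Art and 8.08, 8.04 and 7.98 in the labelled libraries and did not pass (0.32, limma adjusted p = 0.0591). In the BCL2 family 3 of 15 measured genes rose (5 without Art replicate 3), 7 fell (9 without it) and 5 did not pass. Bcl2, which blocks apoptosis, was at 10.66, 10.68 and 11.18 in Art and 8.24, 8.69 and 8.25 in the labelled libraries (log2 fold change -2.44, SE 0.21, limma adjusted p = 0.000343), and Bmf, which promotes it, at 9.59, 9.65 and 9.17 in Art and 6.82, 7.56 and 6.93 in the labelled libraries (-2.36). Bid, which links death receptors to mitochondria, rose by 1.06. Mcl1 (-0.31, adjusted p = 0.321) and Bcl2l1 (-0.20, adjusted p = 0.161) did not pass in limma. The falls thus included genes for and against cell death.

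Interferon-response genes fell in 17 of 28 measured cases, with 2 higher (1 to 3 with single libraries left out), 9 not passing and a median of -0.90. Without Art replicate 3, 3 rose and 21 fell, with a median of -0.95. Irf7, a factor that amplifies interferon, was at 3.48, 3.51 and 4.64 in Art and 1.24, 1.62 and 1.50 in the labelled libraries (-2.42), and Oas2, an antiviral enzyme, had 52, 33 and 12 reads in Art and 2, 0 and 4 in the labelled libraries (-4.51). Ifit3 (-2.16) and Oas3 (-1.86) fell from low levels in Art, and Gbp7, a guanylate-binding protein, rose by 1.82. Isg15, a ubiquitin-like protein, did not pass in limma (-0.70, adjusted p = 0.0631).

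Of 20 measured genes of antigen presentation 5 rose, the same 25.0% as of all genes, 8 fell and 7 did not pass, with a median of -0.27. Without Art replicate 3, 8 rose and 9 fell, with a median of -0.14. H2-K1, a class I heavy chain, fell from 12.14, 12.10 and 13.11 to 10.40, 10.52 and 10.35 (-2.03). In class II, the master regulator Ciita rose from 1.85, 1.61 and 0.55 to 3.59, 3.37 and 3.40 (log2 fold change 2.12, SE 0.35, limma adjusted p = 0.00374), with H2-DMb2 (2.66) and H2-DMa (2.45), which help load peptides. H2-Ab1 was at 4.85, 4.88 and 6.43 in Art and 6.73, 6.51 and 6.63 in the labelled libraries and Cd74 at 6.90, 6.93 and 7.94 in Art and 8.19, 7.95 and 8.09 in the labelled libraries. Neither passed with all 6 libraries (adjusted p = 0.0526 and 0.0587), and without Art replicate 3 they were higher by 1.76 and 1.16. B2m, the light chain of class I, did not pass (-0.44, adjusted p = 0.0559). H2 genes resemble each other closely, so reads can be split between them.

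Integrin chains and markers of other lineages were measured for cells or programs that a pre-B culture might hold. Of 17 measured integrin genes 3 rose, 9 fell and 5 did not pass, and the falls numbered 5 without labelled replicate 1 and the rises 1 without any 1 labelled library and 5 without Art replicate 3, when 11 fell. Itgb7, a partner chain in gut homing, rose from 0.54, 0.18 and -0.08 to 3.03, 2.88 and 3.30 (log2 fold change 2.86, SE 0.23, limma adjusted p = 0.00031). Itgax (-2.72) and Itgal (-1.44) fell, and Itgb1, the common beta chain, did not pass (0.39, limma adjusted p = 0.0558). The summed level of 13 measured myeloid markers of 23 was 1189 to 1280 CPM in Art and 203 to 250 CPM in the labelled libraries. Most of the Art sum was Itgam, and of the 13 genes 2 rose (1 to 4 with single libraries left out) and 5 fell. Fcgr3 had the highest log2 fold change of the list (1.27) and Itgam the lowest (-5.01). Lyz2 was at 2.85, 2.98 and 3.09 in Art and 1.57, 1.31 and 1.50 in the labelled libraries and Csf1r at 0.24, -0.06 and 0.71 in Art and -0.57, -0.37 and 0.09 in the labelled libraries, both defining myeloid genes, and 1 gene of the list, Adgre1, was at 0 reads in labelled replicates 1 and 3. T and NK markers, 9 of 22, summed to 192 to 211 CPM in Art and 204 to 208 CPM in the labelled libraries. Plasma-cell markers, 8 of 11, summed to 679 to 928 and 599 to 637 CPM, and erythroid and megakaryocyte markers, 6 of 18, to 38.5 to 45.4 and 36.8 to 38.3 CPM. The part of such cells in any result was not tested, and in bulk RNA fewer cells of a type and less RNA per cell cannot be told apart.

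Immediate-early and stress genes had no common direction. Of 22 measured 9 rose, 7 fell and 6 did not pass, and the median was 0.12, or -0.11 with libraries centred on their medians. Both counts were 9 without Art replicate 3. Fos (2.51) and Fosb (2.16), subunits of the AP-1 factor, rose beside Egr1, as did the chaperone gene Hsp90aa1 (2.36). Hspa1a, an inducible chaperone with a near-identical copy, fell by 2.26 log2 units.

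Several genes described above as not passing with all 6 libraries passed without Art replicate 3. Higher in the labelled libraries in that fit were Ubtf (0.49), Ccnb1 (0.64), Cdc20 (0.71), Cdk2 (0.38), Prkdc (0.40), Hif1a (0.23), Itgb1 (0.27) and Trp53 (0.39). Lower were Rel (-0.69), Mcl1 (-0.57), B2m (-0.54), Irf4 (-0.50), Ddit3 (-0.20), Bcl2l1 (-0.16) and Stat5b (-0.14), with limma adjusted p from 4.76e-06 for Mcl1 to 0.0422 for Stat5b. Stat5a (-0.06), Nfkb1 (-0.09), Pax5 (-0.13), Isg15 (-0.61) and Csf1r (-0.37) did not pass in either fit.

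Whether these differences are shared by the other line with the label was measured with an interaction term over 12 libraries. In Rag_SPIC_DOX cells 6186 genes changed with the label (53.6%). Of the genes that changed in both lines, 2831 moved the same way and 489 in opposite ways. The difference between the lines passed the test for 3621 genes (31.3%), or 6286 (54.4%) without Art replicate 3, and 2805 of the 5664 genes that changed in Artemis-deficient cells were among the 3621. No Art library enters the Rag_SPIC_DOX contrast, but the lines differ in genotype, SPIC construct and doxycycline, which cannot be told apart here.

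Spib had opposite directions in the 2 lines. In Rag_SPIC_DOX it was at 5.54, 6.0 and 5.84 and in Rag_SPIC_DOX_shBCLAF1 at 8.07, 7.96 and 7.96, a log2 fold change of 2.20 beside -1.30 in Artemis-deficient cells (interaction adjusted p = 1.35e-06). Spic rose in both, by 3.25 beside 4.10 (interaction adjusted p = 0.075), although in the Rag line its reads include any from the construct. Trib1 and Gfi1, which fell in Artemis-deficient cells, rose by 0.64 and 0.93 in the Rag line (interaction adjusted p = 2.79e-05 and 0.000109). The difference of Erg in the Rag line was -0.07 (interaction adjusted p = 4.02e-05). Cd86 (-0.59) and Itgb7 (-1.31) had negative differences there, with interaction adjusted p of 0.000247 and 0.000233. Lig4 (0.04) and Dntt (-0.15) did not pass the test in the Rag line, against -2.01 and -2.02 in Artemis-deficient cells (interaction adjusted p = 0.000137 and 0.000536).

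No test compared the lists with each other. Mitosis genes had a median of -0.44 in the Rag line beside 1.31 in Artemis-deficient cells, and the interaction passed for 40 of 42. DNA replication stood at 0.33 beside 1.76, with 32 of 44 passing, and homologous recombination at 0.11 beside 1.18, with 19 of 25. Amino-acid stress genes were at 0.61 beside 2.02 (23 of 37 passing), glycolysis genes at 0.10 beside 1.51 (13 of 30). Ribosome biogenesis was at 1.18 beside 1.76, with 4 of 49 passing, and MYC targets at 1.51 beside 2.26, with 8 of 39. Both shares were below the 31.3% of all genes. Rag_SPIC_DOX replicate 2 had root-mean-square log2 differences of 0.83 and 0.58 from replicates 1 and 3. Of the MYC targets, Bcat1, Ccnd2 and Slc7a5 had an SE of 0.75, 0.80 and 0.41 in the Rag line. Bcat1 and Slc7a5 passed the interaction test, but Ccnd2, at 2.45, did not (interaction adjusted p = 0.0562). A low count of passing genes therefore does not show that the lines were alike. RAG-break genes stood at -0.81 beside -1.76 (16 of 22 passing) and NF-kB targets at -0.58 beside -1.53 (14 of 30). For Tnfaip3 the fall was -1.04 beside -3.44 (interaction adjusted p = 6.34e-05), whereas for Ccl5 it was -7.14 beside -6.56 (adjusted p = 0.678). FOXO-driven genes had medians of -0.65 and -0.66 (-0.76 in Artemis-deficient cells without Art replicate 3), and the interaction passed for 12 of 36, near the share of all genes. Without Art replicate 3, when 54.4% of all genes passed, the counts were 42 for mitosis, 41 for DNA replication, 21 for homologous recombination and 29 for amino-acid stress. They were 18 for glycolysis, 10 for ribosome biogenesis, 13 for MYC targets, 16 for the RAG-break program, 17 for NF-kB targets and 20 for FOXO-driven genes.

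**Figure D5:**
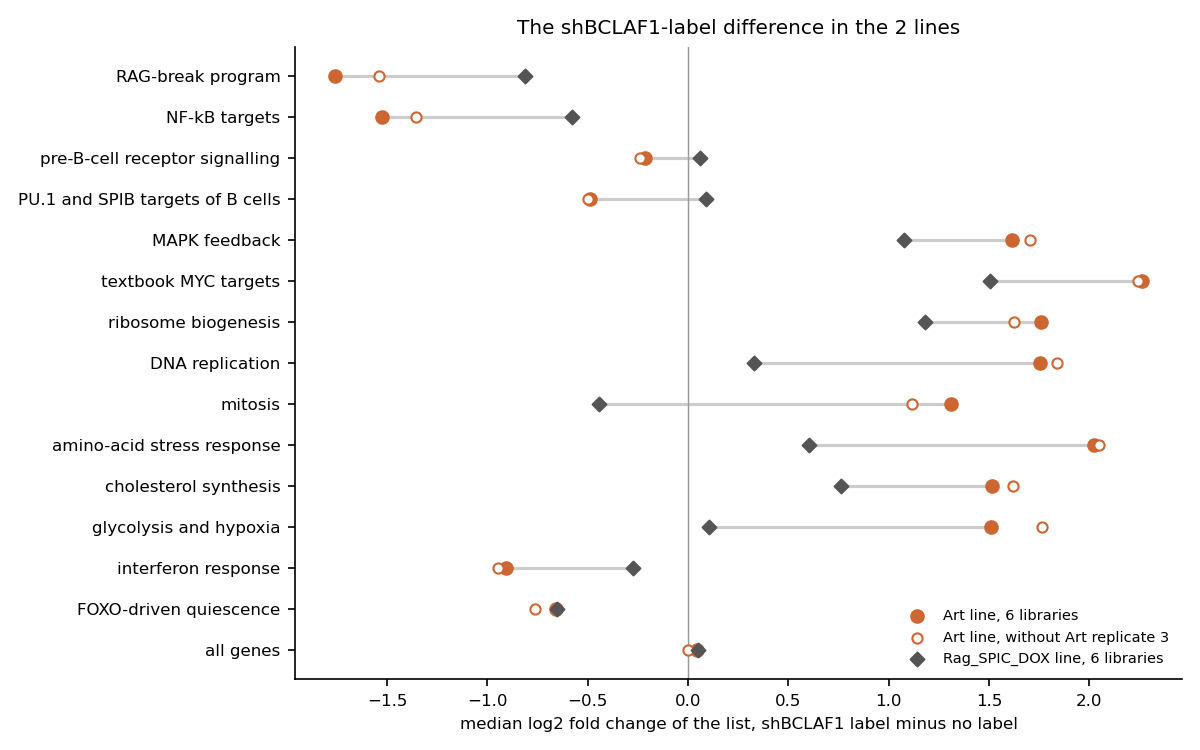
Median log2 fold change (x axis, shBCLAF1 label minus no label) of 14 gene lists and of all genes in Artemis-deficient cells with 6 libraries (filled circles) and without Art replicate 3 (open circles), and in Rag_SPIC_DOX cells (diamonds, 6 libraries). Mitosis genes lie at 1.31 and -0.44, on opposite sides of 0, and ribosome biogenesis at 1.76 and 1.18, on the same side.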

How the data were processed

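RNA of mouse Abelson pre-B cells was sequenced in paired ends, and the submitters' processing notes list limma, edgeR, featureCounts 1.4.5 and Subread, with mm9 as the genome, but no role or order. The authors deposited 4 tables with log2 CPM values of all 15 libraries, in which 0.5 reads had been added to each count. Of the values under 1000 reads, 100% return to whole reads within 0.05. The authors' p-values in these tables were read only to learn how rows were chosen. Each table holds protein-coding genes under the authors' adjusted p limit (highest 0.0499), so any number of genes below the threshold refers to the union of 11551 genes, 9784 of them in the table of these 2 groups. Duplicate rows (152) were merged, and 3 symbols shared by several identifiers were replaced from a reference table. The column of Art replicate 3 was matched although its name departs from the pattern of the others by a single character.

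A linear model with a trended prior was fitted to the 6 libraries (limma 3.58.1, R 4.3.3), two-sided, with Benjamini-Hochberg adjustment over all 11551 genes, and a gene that rose, fell or changed had an adjusted p below 0.05. The same fit was run without Art replicate 3. Log2 fold changes are differences of group means, Art_shBCLAF1 minus Art, and values of 3 libraries are in the order of their replicate numbers. Genes were named as the label genes, the 12 largest changes each way with above-median expression, groups apart and a call in both fits, and up to 5 changed and 3 unchanged-by-test members of each list by size or familiarity. List exceptions, genes shown with a promoter window, marker genes and those in the closing section were chosen after their values were seen. A few genes that these rules name are not reported here. The 28 gene lists and 5 marker lists (798 genes) were written from general knowledge, and the groups, members and lists were chosen with earlier results of these data known. Promoters are from RefSeq (GRCm38.p6), matched by symbol for 9104 genes with 11657 starts. The depth was 5.81 to 25.9 M reads a library, and p-values rest on 3 libraries a group.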

Additional observations from a re-analysis of the deposited data

Results flagged for a closer look

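For 22 of 34 genes, the 10 label genes and the 24 largest changes, the difference that goes with the label in Artemis-deficient cells departed from that in Rag_SPIC_DOX cells by the interaction test (limma adjusted p from 1.35e-06 for Spib to 0.0444 for Rag1), beside 31.3% of all genes tested. The 24 were chosen for their size in Artemis-deficient cells, which favours a larger value there, so nothing is read from this count. The value for each is the log2 fold change in the first line minus that in the second. Spib, which moved in opposite directions, had -3.50, and Rag1 -1.21. Among genes that rose in Artemis-deficient cells, the values were 3.0 for Pole2, 2.66 for Bcat1 and 2.48 for Snrpd1. The serine and folate genes Mthfd2 (3.13), Psat1 (3.07) and Mthfd1l (2.59), the transporters Slc7a5 (2.21) and Slc7a1 (2.14), and Asns (2.02) were also positive. Among genes that fell there, Cacna1e had -4.38 and Snn -3.01. Itgam (-2.50), Mid1 (-2.08), Tmtc1 (-2.07), Cdkn2a (-2.04), Pqlc3 (-2.00), Shisa5 (-1.98), Adamts7 (-1.88), Gadd45g (-1.53) and Ltb (-1.40) were negative as well. The construct, doxycycline and genotype differ between the lines together with the origin of the cells, and cannot be told apart.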

How the results depend on the processing

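Of 11551 genes 5664 changed. With single libraries left out the count ranged from 3740 (without Art_shBCLAF1 replicate 1) to 9252 (without Art replicate 3). It was 9839 with array weights, whose estimation stopped before its tolerance was reached, and 8688 with a replicate block, 8973 with all other libraries in 1 fit, 9362 with centred libraries and 9313 with precision weights (voom), each of these 4 without Art replicate 3. The last 3 were chosen after seeing the data. The other 8 alternatives gave 4779 to 7375. The interaction count, 3621, was 9159 with array weights and 2674 to 6286 with single libraries left out. Same-numbered deviations from the group means correlated at -0.126, 0.110 and 0.029, and not every library correlated best with its own number. Art replicate 3 lies far from its group and so shapes the deviations of all 3 Art libraries. These correlations therefore cannot tell whether replicate numbers pair the libraries. With the replicate block 4779 genes changed, and 2666 by the interaction. Spi1, not changed at -0.05 (-0.22 to 0.19 with single libraries left out), turned positive without Art replicate 3, also with the block (0.23), voom (0.19) or all other libraries (0.19), and with array weights (0.12). Other genes that did not pass turned positive without Art replicate 1 or 2: with single libraries left out Dclre1c ranged from -0.98 to 0.15, Cdkn1b from -0.79 to 0.12 and Pax5 (replicate 1 alone) from -0.13 to 0.040. The cause was not tested. Of 175 changed genes followed through the alternatives, 0 reversed and 13 missed the threshold under some alternative. The 13 were Ms4a1, Vpreb1, Ccl4, Bub1, Ncapg, Ccnd1, Hist1h2ae, Hist1h3e, Mycl, Id1, H2-D1, Cd79a and Cd5. The planned count models (a quasi-likelihood test and negative binomial test) were not run, since the deposited unit is log2. The low depth of Art replicate 3 limits genes of few reads.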

Other observations

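Several of the largest differences lay in genes outside the lists or in marker lists, and they are named here after their values were seen. Kynu, which encodes kynureninase, an enzyme of tryptophan breakdown, had 7096, 4797 and 882 reads in Art and 27, 70 and 37 in the labelled libraries (log2 fold change -6.75, SE 0.46, limma adjusted p = 0.000183). Wnt10b, a secreted WNT ligand, had 1024, 734 and 337 reads in Art and 1, 9 and 5 in the labelled libraries (-7.74, SE 0.74), and Il9r, a cytokine receptor chain, 634, 428 and 150 reads in Art and 1, 4 and 5 in the labelled libraries (-7.22, SE 0.57). In the other direction, Crhbp, a secreted protein that binds corticotropin-releasing hormone, went from 1.13, 0.96 and 1.50 to 7.49, 7.25 and 7.34 log2 CPM (log2 fold change 6.16, SE 0.18, limma adjusted p = 3.52e-05), and Hs3st1, a heparan sulfate sulfotransferase, had 2, 1 and 0 reads in Art and 242, 211 and 201 in the labelled libraries. The groups did not overlap for any of these 5 genes, nor for 65.6% of all genes. The 5 were chosen for large differences, so nothing is read from this.

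Single genes of other lineages had large differences, in both directions within the marker lists of T and NK cells (3 higher and 3 lower of 9) and of plasma cells (3 and 3 of 8). Hbb-bt, an adult beta-globin gene, had 4, 1 and 0 reads in Art and 471, 304 and 333 in the labelled libraries (log2 fold change 7.39, SE 0.34, limma adjusted p = 7.85e-05), and only reads that were not shared with its near-identical copy can be told to be its own. Of the 6 erythroid and megakaryocyte markers measured it was the 1 that rose, and 3 fell. Lck, the kinase of T-cell receptor signalling, fell from 6.41, 6.32 and 6.36 to 2.52, 2.37 and 2.62 (log2 fold change -3.86, SE 0.13, limma adjusted p = 5.08e-05), with a log2 fold change of -0.50 in the Rag_SPIC_DOX line (interaction adjusted p = 6.92e-07). Cd2, a T-cell adhesion receptor, rose from 2.78, 2.68 and 3.83 to 6.92, 6.82 and 6.92 (3.79), and Cd5, a receptor of T and some B cells, rose by 3.30. Among plasma-cell markers, Slamf7 was at 7.48, 7.33 and 6.23 in Art and 4.88, 5.06 and 4.81 in the labelled libraries (-2.09) and Sdc1 at 6.74, 6.71 and 7.10 in Art and 4.82, 4.99 and 4.88 in the labelled libraries (-1.96), both lower in the labelled libraries. Jchain had the highest log2 fold change of that list (1.48), in which as many members rose as fell.

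In 25 genes all reads came from 1 of the 2 groups. Fermt1, a partner of integrins, had 88, 43 and 16 reads in the Art libraries and 0 in the labelled ones, at least 60.1-fold lower against 3 reads over the group. Rhod, a small GTPase, was at least 50.7-fold and Hspg2, the basement-membrane protein perlecan, at least 37.2-fold lower. Gda, a guanine deaminase, had 51, 17 and 30 reads in the labelled libraries and 0 in Art, at least 26.6-fold higher, and Oaf at least 17.4-fold higher. These bounds cover counting error only, and only that of the group at 0 reads. Tjp1 and Gast, also among the 25, had 2 reads each in all, with bounds of 0.54 and 0.82, below 1.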
